A study of Mus musculus with 92 samples.

Results

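The STAG2 sites of ESC only are 7648 places in the mouse genome where the cohesin subunit STAG2 was called in embryonic stem cells (ESC) and in none of the other 4 cell types of the study. They were chosen by their STAG2 calls. A site of a cell type was a merged interval overlapped by at least 2 of its STAG2 peak lists, the sites of the 5 cell types were merged, and intervals with an ESC site and no other site were kept. This gave 7648 of 93057 STAG2 sites in all, or 12.6% of the merged intervals that held an ESC site. The presence of these sites in ESC and their absence elsewhere is therefore a selection and not a result, while STAG1, CTCF, STAG3, gene positions and spacing were not used to choose them. CTCF and STAG3 were read in GSC only, however, and the selection left out every interval with a GSC STAG2 site. The CTCF and STAG3 shares may therefore depend on the selection. STAG1 was read in the same 5 cell types as STAG2, so its shares may depend on it as well.

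The study compared cohesin in cultured mouse cells that lead from pluripotency to the germline, by chromatin immunoprecipitation and sequencing. All STAG1, STAG2 and STAG3 lists came from wild-type cells: ESC; EpiLC, cells that resemble the epiblast; d2PGCLC and d4c7PGCLC, which resemble primordial germ cells; and GSC, germline stem cells. STAG2 had 2 lists each in ESC and EpiLC and 3 each in d2PGCLC, d4c7PGCLC and GSC. STAG1 had 2 lists in each cell type, and STAG3 had 3 in GSC. The 4 CTCF lists came from GSC that lacked STAG3 (Stag3KO), STAG2 and STAG3 (Stag2Stag3dKO), STAG1 and STAG3 (Stag1Stag3dKO) or STAG1 and STAG2 (Stag1Stag2dKO), so CTCF was read in another cell type, line and genotype than the sites. ESC, EpiLC and both PGCLC came from the BVSC line, which carries Blimp1-mVenus and Stella-ECFP reporters, and GSC from the AAG line, which carries Acrosin-EGFP and beta-Actin-EGFP. PGCLC and GSC had been sorted for their reporter signal, while ESC and EpiLC had only been harvested. Peak lists show binding and not expression, so the labelled cell types could not be checked against marker genes.

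Cohesin is a ring that extrudes loops of DNA and holds sister chromatids together, and each ring carries a STAG subunit. STAG1-cohesin and STAG2-cohesin both accumulate where the insulator protein CTCF blocks loop extrusion, and STAG2-cohesin is also known from enhancers and promoters without CTCF. Naive ESC are kept in their state by factors such as ESRRB, NANOG and TFCP2L1, and cells leave it when they become EpiLC.

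Of 32851 promoters in a RefSeq table, 587 (1.79%) were overlapped by an ESC-only site, and 499 (1.52%) by an EpiLC-only site. The upstream 250 bases of 6 of these promoters are shown, since they are the DNA under the sites at the genes that the fixed naming rule reached first. They are the naive pluripotency genes Nanog (chr6:122707239-122707488, plus strand), Nr0b1 (chrX:86191525-86191774, plus strand) and Tcl1 (chr12:105222738-105222987, minus strand), an internal start of the filopodial motor gene Myo10 (chr15:25752956-25753205, plus strand), the neural factor gene Neurog1 (chr13:56252181-56252430, minus strand) and the germline gene Tex19.1 (chr11:121145893-121146142, plus strand). The Myo10 promoter lies under a weaker site (chr15:25752426-25753352, STAG2 fold over background 3.86 and 5.01 in the ESC lists). The rule had named Myo10 for another site (chr15:25690101-25690720, 29.2 and 28.3). Sequences are from RefSeq, GRCm38.p6, and run 5′ to 3′ along the gene. Capitals mark matches on either strand to any of 5 motifs searched: the CTCF core AGGGGGC, the octamer ATGCAAAT, the SOX motif CTTTGTT, the ESRRB motif TCAAGGTCA and the KLF motif GGGTGTGG.
Nanog: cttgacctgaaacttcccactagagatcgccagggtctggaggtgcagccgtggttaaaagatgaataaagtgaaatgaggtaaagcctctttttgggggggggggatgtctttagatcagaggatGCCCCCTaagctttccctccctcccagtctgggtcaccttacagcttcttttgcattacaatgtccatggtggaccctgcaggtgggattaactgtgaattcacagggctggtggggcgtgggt
Nr0b1: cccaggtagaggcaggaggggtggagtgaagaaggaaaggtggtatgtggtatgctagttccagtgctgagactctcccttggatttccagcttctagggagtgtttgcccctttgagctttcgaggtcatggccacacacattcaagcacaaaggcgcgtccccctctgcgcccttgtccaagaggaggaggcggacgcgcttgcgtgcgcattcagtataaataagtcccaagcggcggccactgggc
Tcl1: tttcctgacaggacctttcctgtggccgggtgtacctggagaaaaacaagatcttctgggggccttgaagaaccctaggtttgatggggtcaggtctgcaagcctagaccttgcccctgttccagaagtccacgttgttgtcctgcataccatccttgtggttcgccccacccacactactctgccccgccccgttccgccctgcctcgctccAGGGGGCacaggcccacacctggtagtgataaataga
Myo10: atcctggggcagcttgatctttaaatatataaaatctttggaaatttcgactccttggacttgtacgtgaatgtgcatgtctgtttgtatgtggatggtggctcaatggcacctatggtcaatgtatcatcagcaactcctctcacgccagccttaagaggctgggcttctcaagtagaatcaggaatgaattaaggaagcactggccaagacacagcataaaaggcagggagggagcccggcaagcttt
Neurog1: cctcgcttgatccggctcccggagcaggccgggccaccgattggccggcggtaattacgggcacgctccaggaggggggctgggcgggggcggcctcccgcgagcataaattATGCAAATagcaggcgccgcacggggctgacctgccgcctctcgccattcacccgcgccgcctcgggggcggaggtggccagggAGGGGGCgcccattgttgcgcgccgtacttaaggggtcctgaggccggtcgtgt
Tex19.1: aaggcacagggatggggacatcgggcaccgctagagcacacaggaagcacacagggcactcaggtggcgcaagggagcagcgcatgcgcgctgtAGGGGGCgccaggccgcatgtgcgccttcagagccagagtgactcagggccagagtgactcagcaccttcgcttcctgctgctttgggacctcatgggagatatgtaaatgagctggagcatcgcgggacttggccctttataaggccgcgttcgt

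The CTCF core was found in 4 of the 6 stretches, the octamer in Neurog1 only, and none of the 5 motifs in Myo10 or Nr0b1. Over the promoters of 300 bases, the CTCF core lay in 12.6% of those at ESC-only sites, 18.9% of those at ESC sites shared with another cell type and 9.43% of all. The octamer lay in 1.87% of promoters at ESC-only sites against 1.60% of all, the SOX motif in 4.77% against 5.03%, and the KLF motif in 3.41% against 3.20%. The ESRRB motif lay in 0 of the 587 promoters at ESC-only sites and in 0.387% of all. A match is a run of letters in this window and says nothing on binding.

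ESC-only sites were weak STAG2 sites in ESC. The authors' fold over background at these sites had a median of 5.06 in ESC list 1 (from 2.34 to 59.6) and 5.19 in ESC list 2 (from 2.26 to 52.3), against list medians of 7.98 and 7.93. The 53056 ESC sites shared with at least 1 other cell type, EpiLC included, had medians of 12.2 and 12.1, and sites of all 5 cell types 39.8 and 38.5. Only 8.37% and 10.1% of the ESC-only sites lay above the median of their list. Just outside the selection were intervals called in a single ESC list with no site elsewhere, 5834 in list 1 with a median fold of 4.19 and 6423 in list 2 with 4.36. When an ESC list stood alone its peaks were all sites, and the selection gave 14249 sites without list 1 and 13705 without list 2. Fold is the authors' value for each peak, it was part of the calls that chose the sites, and it carries no test.

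**Figure D1:**
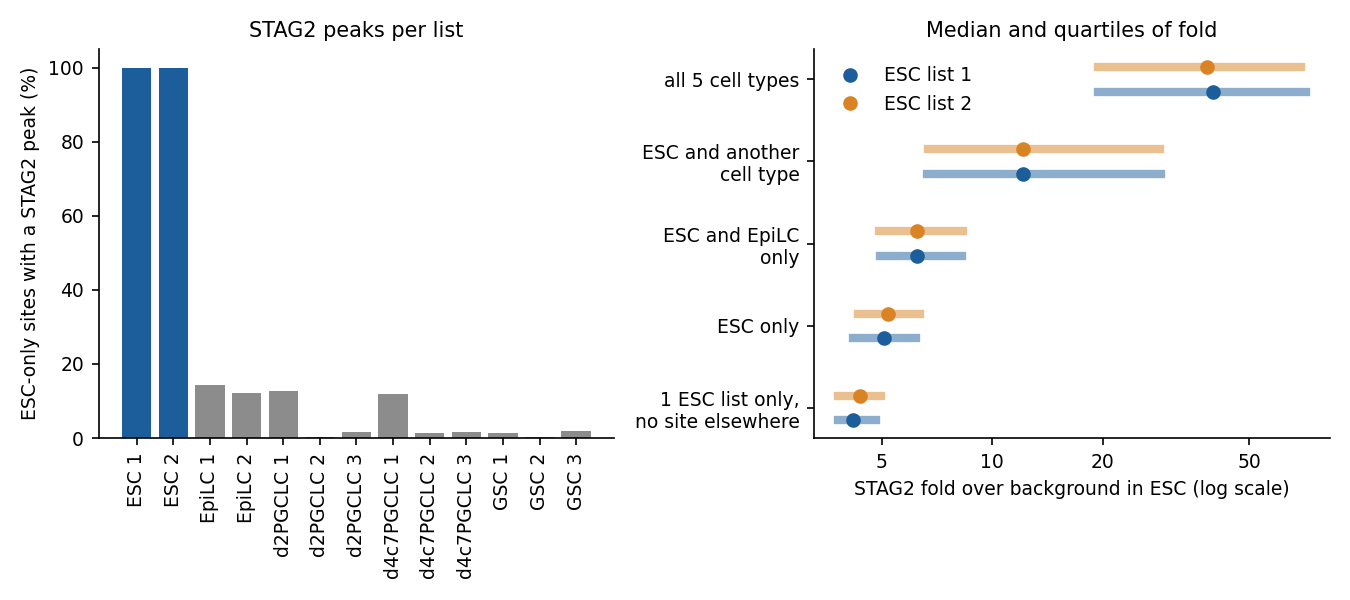
Left, the percentage of the 7648 ESC-only sites with a STAG2 peak in each of the 13 lists; the 2 ESC lists stand at 100% by selection, and the others lie between 0.183% and 14.3%. Right, median (points) and quartiles (bars) of the authors' STAG2 fold in the 2 ESC lists for 5 site sets, on a log axis, where the ESC-only sites have medians of 5.06 and 5.19.

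Many ESC-only sites had a STAG2 peak in a single list of another cell type, which the selection allowed. In EpiLC, 1092 had a peak in list 1 and 926 in list 2. In d2PGCLC the numbers were 962, 14 and 130, in d4c7PGCLC 918, 114 and 134, and in GSC 95, 14 and 151. Lists 1 of d2PGCLC and d4c7PGCLC stood apart from the other lists of their cell type, and they were also the longest there, with 73250 and 53988 peaks. Without list 1 of d2PGCLC the selection gave 8301 sites, and without list 1 of d4c7PGCLC 8164. In all, 4395 ESC-only sites (57.5%) had no peak in any of the 11 other STAG2 lists, 2276 had a peak in 1 list and 711 in 2. At most 5 other lists had a peak, at 4 sites. The EpiLC lists held 84904 and 82994 peaks and the ESC lists 72729 and 73195, so the EpiLC lists were longer than those that defined these sites. The GSC lists were shorter, with at most 25979 peaks, and no list states its depth, so a site without a call is not shown to lack STAG2.

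Most ESC-only sites lay away from CTCF. A CTCF site called in all 4 GSC genotypes was found at 410 of them, or 5.36% (Wilson 95% interval 4.88 to 5.89%), and single CTCF lists overlapped 6.08% to 6.71%. The share was 10.5% of EpiLC-only sites, 24.7% of sites of ESC and EpiLC only, 54.3% of ESC sites shared with any other cell type and 90.9% of sites of all 5 cell types. The interval covers counting error over sites and not differences between cultures, and with 1 list per genotype the CTCF shares have no test. Fold moved with this share, and its part in it was not tested: the strongest 10.0% of the ESC-only sites had CTCF in 9.15% of cases. The 410 sites at CTCF had a median fold (geometric mean of both ESC lists) of 5.58, those away from it 5.04, and a peak in at least 1 other STAG2 list was found at 70.5% of the former and 41.0% of the latter.

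A choice of sites on lists of equal length picked other places, with CTCF at most of them. When every STAG2 list was reduced to its 13698 strongest peaks, 487 sites were of ESC only, and 58.7% of them lay at CTCF sites. The share was then 48.3% of EpiLC-only sites, 55.6% of sites of ESC and EpiLC only and 88.0% of shared ESC sites. ESC-only sites thus no longer had the lowest share. In this setting the CTCF lists were also reduced, to 39639 peaks each, and the STAG1 lists to 9641. Of the 487, 3 were among the 7648, and 484 overlapped a site of another cell type in the full lists.

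**Figure D2:**
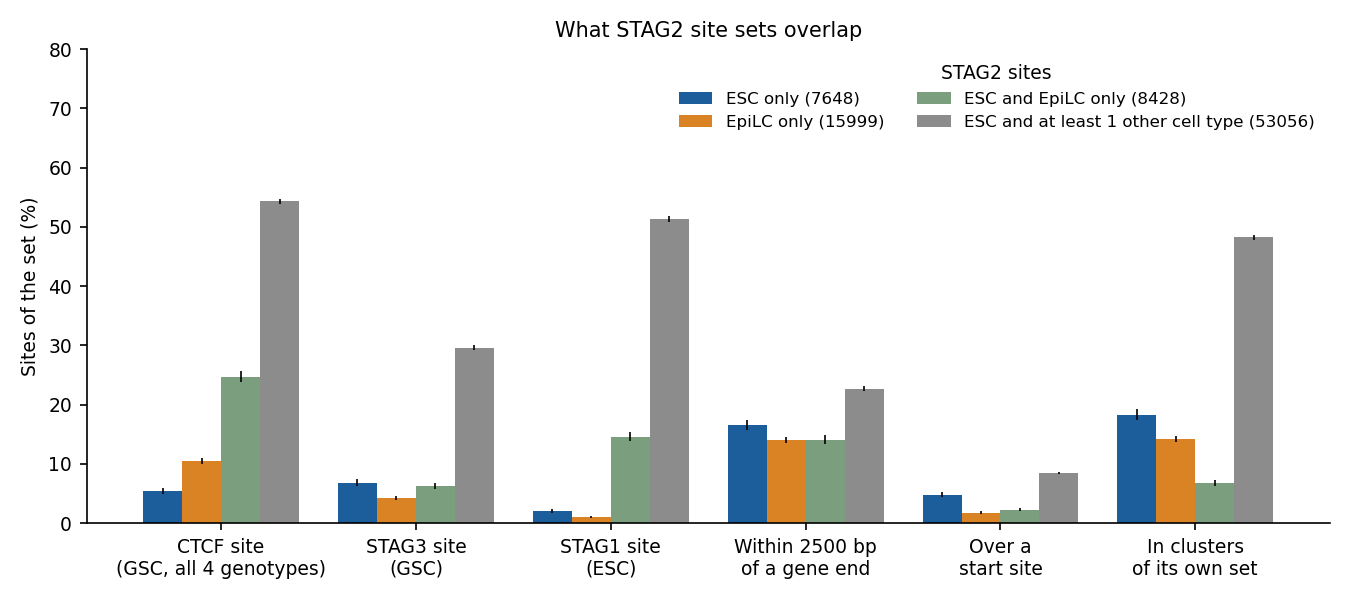
Percentages of 4 sets of STAG2 sites that overlap a CTCF, STAG3 or STAG1 site, lie within 2500 bp of a gene end, cover a start site or lie in clusters of their own set; lines are Wilson 95% intervals for counting error over sites. With the full lists shown here, the ESC-only sites are lowest for CTCF, at 5.36%, and reach 18.3% in clusters.

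STAG1, the other mitotic STAG subunit, was seldom called at these sites. In ESC, STAG1 list 1 had a peak at 615 (8.04%) and list 2 at 195 (2.55%). In EpiLC the shares were 0.105% and 0.562%, in d2PGCLC 0.170% and 0.445%, and in GSC 0.0131% and 0.196%. The d4c7PGCLC lists had 4.39% and 6.81%, within the range of the ESC lists, and they held 38491 and 42013 peaks, against 39055 and 29222 in ESC. The ESC mean was 5.30% ± 3.88 (SD, n = 2) and the mean of the other lists 1.59% ± 2.57 (SD, n = 8), a difference of 3.71 points that did not pass (two-sided exact permutation test over the 10 lists, p = 0.0889, adjusted over 3 tests 0.0889, smallest possible 0.0222). It was 0.963 points without STAG1 list 1 of ESC and 6.45 without list 2. Counted from the STAG1 side, 1.58% and 0.671% of the STAG1 peaks of ESC lay at ESC-only STAG2 sites. In d4c7PGCLC this was 0.876% and 1.24%, and in the other 6 lists at most 0.167%. The difference of means was 0.791 points and did not pass either (exact permutation p = 0.0667, adjusted 0.0889), and it was 0.336 and 1.25 points without ESC list 1 or 2.

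Set against EpiLC-only sites within the same list, the STAG1 shares of ESC and of the other cell types went opposite ways. In ESC, STAG1 was called more often at ESC-only than at EpiLC-only sites, by 2.05 and 0.793 points. In each of the 8 other lists it was called less often, with differences of −0.202 and −2.89 points in EpiLC, −0.105 and −0.368 in d2PGCLC, −1.69 and −2.26 in d4c7PGCLC, and −0.149 and −0.148 in GSC. The ESC values thus lay above 0 and all others below it, and the groups did not overlap. ESC-only sites were chosen by STAG2 calls in ESC, however, and EpiLC-only sites by STAG2 calls in EpiLC. STAG1 and STAG2 share sites, with an ESC STAG1 site at 51.3% of shared ESC sites. The part of the selection in the signs for ESC and EpiLC was not tested. Some shares rest on few ESC-only sites with a peak: 8 in EpiLC list 1, 13 in d2PGCLC list 1, and 1 and 15 in the GSC lists. EpiLC-only sites lay at CTCF sites more often (10.5% against 5.36%), and the part of this in the differences was not tested. The difference of means was 2.40 points (1.42 ± 0.891 SD, n = 2, against −0.976 ± 1.13 SD, n = 8), with an exact two-sided permutation p of 0.0444 that did not pass after adjustment over the 3 tests (0.0889). With lists of equal length the 3 differences were 19.6, 0.991 and 17.9 points and all passed (exact permutation, adjusted p = 0.0333, 0.0333 and 0.0444). These values covered the other 487 sites described above, with every STAG1 list cut to 9641 peaks. With sites called in any list the 3 differences were 1.16, 0.389 and 0.871 points and none passed (exact permutation, adjusted p = 0.0889 each).

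**Figure D3:**
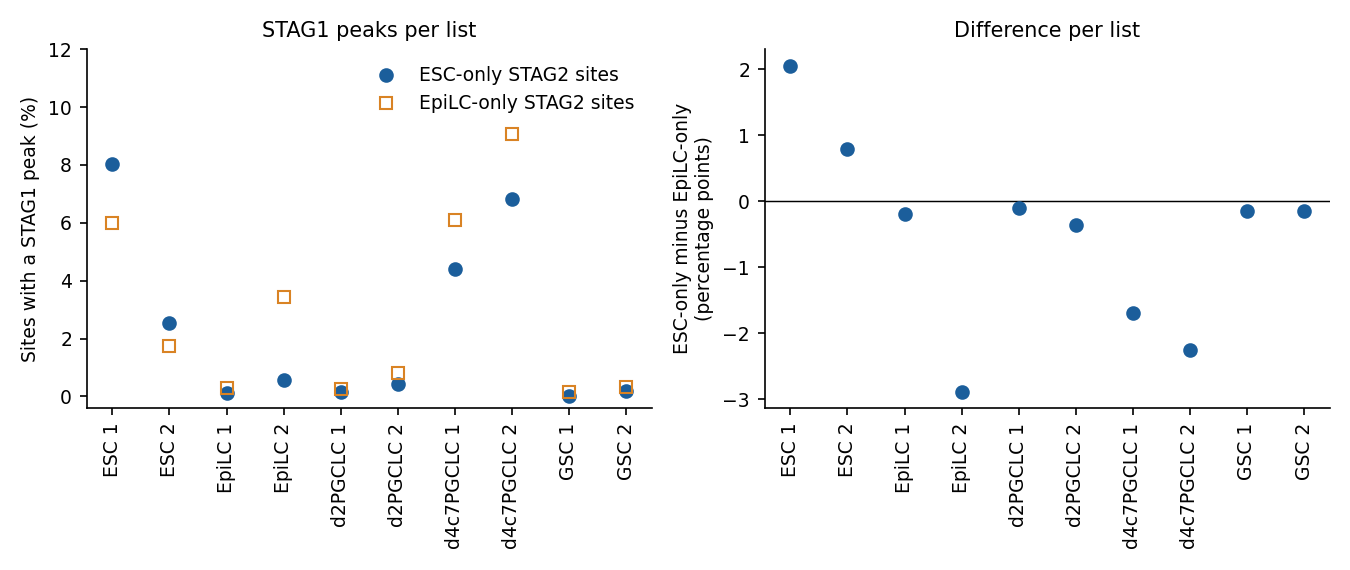
Left, the percentage of ESC-only (filled) and EpiLC-only (open) STAG2 sites with a STAG1 peak in each of the 10 STAG1 lists; right, their difference in percentage points. The 2 ESC lists lie above 0 in the right panel and the 8 others below it.

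A STAG1 site of ESC, called in both lists, lay at 152 ESC-only sites (1.99%), against 51.3% of shared ESC sites. These 152 had a median STAG2 fold of 6.98, and 44.7% of them lay at CTCF sites, against 4.56% of the rest. With STAG1 list 1 alone the share was 8.04%, and with list 2 alone 2.55%. It was 1.28% without STAG2 list 1 of ESC and 1.33% without list 2. A STAG1 peak in both ESC lists and in no other STAG1 list was found at 47 sites. The 5 of these with the highest STAG1 fold lay near Reep3, a gene of an endoplasmic reticulum protein (STAG1 fold 14.2 and 7.82), Fxyd2, a sodium pump regulator (9.19 and 7.74), Terf2, a telomere-binding protein (7.87 and 7.99), Gm9631 (9.34 and 5.91) and Trmt1l, a tRNA methyltransferase relative (8.19 and 5.91). Only the Fxyd2 site of the 5 lay at a CTCF site.

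STAG3 in GSC was called at 520 ESC-only sites (6.80%), against 4.19% of EpiLC-only sites and 29.6% of shared ESC sites. Of these sets only the shared sites could hold a GSC STAG2 site, and the part of this was not tested. STAG3 is the subunit best known from meiosis, and its 3 lists overlapped 2.28%, 8.22% and 8.58% of the ESC-only sites, the first being a shorter list of 12832 peaks. Of the 520, 72.1% lay at gene ends, and 85.4% had a peak in at least 1 other STAG2 list. Of the 4395 sites without any other STAG2 peak, 1.73% had a STAG3 site. Where STAG3 of GSC met these sites, STAG2 had thus mostly been called in at least 1 list of another cell type as well.

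By median distance, ESC-only sites lay closer to genes than EpiLC-only sites and farther than shared ones. A gene end, meaning a place within 2500 bp of either end of a protein-coding gene, held 1265 of them, or 16.5% (Wilson 95% interval 15.7 to 17.4%), against 14.1% of EpiLC-only sites, 14.1% of sites of ESC and EpiLC only and 22.7% of shared ESC sites. The median distance to a gene end was 19.07 kb, against 23.7 kb, 20.9 kb and 14.3 kb. Within gene bodies lay 51.2%, and 28.8% were more than 50 kb from any gene end. A start site was covered by 4.80% of ESC-only sites, against 1.79% of EpiLC-only sites and 8.48% of shared ESC sites. ESC-only sites were somewhat wider than EpiLC-only ones, with medians of 382 and 340 bp, and shared ESC sites had 607 bp. Of the ESC-only sites at gene ends, 61.1% had a peak in another STAG2 list and 29.6% a STAG3 site. With sites called in any list the order turned, with 12.7% of ESC-only and 13.3% of EpiLC-only sites at gene ends. With the stricter q, sites called in every list or lists of equal length, ESC-only sites kept the higher share. Of the 4395 ESC-only sites without a peak in another STAG2 list, 11.2% lay at gene ends. These differences between site sets have no test over samples.

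In all, 1358 of 21887 protein-coding genes (6.20%) had an ESC-only site at an end, and 3034 (13.9%) had one in the gene or within 2500 bp. EpiLC-only sites lay at an end of 2379 genes (10.9%). Without ESC list 1 the 1358 genes became 2720, and without list 2 they became 2368. Genes with an ESC-only site in or near them were longer than others, with a median length of 53.4 kb against 17.2 kb for all, and the part of length in the counts inside genes was not tested. Over 15 gene lists the naive pluripotency genes had the highest share at gene ends, 7 of 20 (35%) against the 6.20% of all genes. For EpiLC-only sites it was 3 of the same 20 genes. The formative and primed list, genes turned on as cells leave the naive state, had 2 of 13 with an ESC-only site (Fgf5 and Cdh2) and 8 of 13 with an EpiLC-only site. Mesendoderm genes had 0 of 10 and 5 of 10. The same order was seen in lists of other kinds. Core pluripotency genes had 1 of 10 and 4 of 10, fibroblast feeder genes 1 of 12 and 5 of 12, and chromatin modifiers 1 of 30 and 6 of 30. The LIF and BMP, WNT and primordial germ cell lists went the other way, with 2, 1 and 3 genes against 1, 0 and 2. A shared ESC site lay at an end of 16 of the 20 naive genes and of 10583 of all 21887 genes. With a window of 1000 bp 4 of 20 naive genes had an ESC-only site at an end, against 4.00% of all genes, and with lists of equal length 0 of 20, against 0.407% of all genes.

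**Figure D4:**
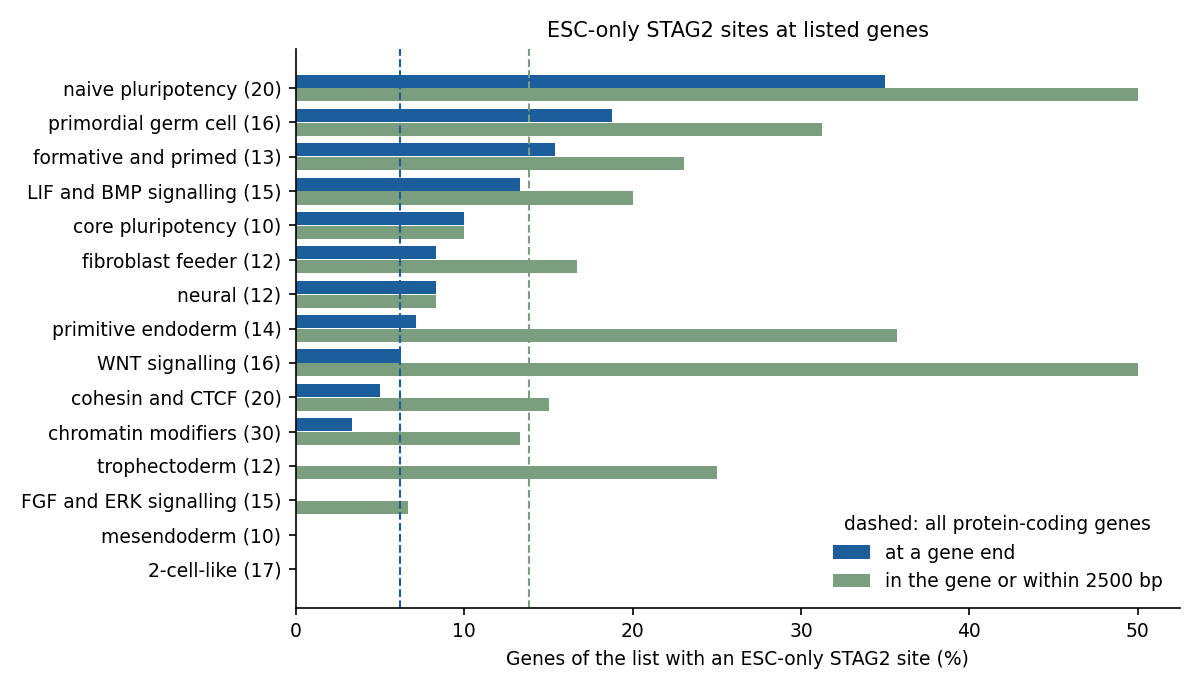
Percentage of the genes of 15 lists (number matched in brackets) with an ESC-only STAG2 site at a gene end (blue) or in the gene or within 2500 bp (green); dashed lines give all protein-coding genes, 6.20% and 13.9%. The naive pluripotency list reaches 35% and 50%, and the mesendoderm and 2-cell-like lists are at 0.

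The 7 naive genes with a site at an end code for regulators and signals of the ESC state. Nanog, a homeodomain factor, had a site over its start (chr6:122707181-122707820) with a fold of 4.50 in ESC list 1 and 4.57 in list 2. Nr0b1, an orphan nuclear receptor gene on chromosome X, had one over its start (chrX:86191479-86192002) with 6.84 and 7.09. Tcl1, an AKT coactivator, had one over its start (chr12:105222705-105223463) with 4.57 and 5.81. These are the promoters whose sequences are printed above, and of the 3 sites the one at Nanog had a peak in another STAG2 list. Fgf4, the growth factor that drives exit from the naive state, had sites with 3.90 and 4.36 (chr7:144864260-144864816) and with 3.25 and 5.19. Tfcp2l1, a target of LIF signalling, had 3 sites at its end, the strongest with 7.33 and 5.89 (chr1:118626262-118626882). Tbx3, a T-box factor, had 1 with 4.68 and 6.02 (chr5:119681790-119682293), and Fbxo15, an F-box gene used as an ESC reporter, 1 with 4.57 and 4.17. Esrrb, Nr5a2 and Dppa2 had sites inside or near the gene but not at an end.

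Together the 10 naive genes had 32 ESC-only sites in the gene or within 2500 bp, with a median fold of 5.15 (geometric mean of both lists, from 3.58 to 25.1). None of the 32 lay at a CTCF site of GSC, 1 (in Tbx3) at a STAG3 site, and 1 (in Nanog) had a peak in an ESC STAG1 list. Of the 32, 27 had no peak in any other STAG2 list and 5 had a peak in 1. Per 100 kb of gene and flank, the naive list had 4.69 sites, against 0.393 for all genes. Esrrb alone held 14 of the 32.

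At gene ends the other lists lay closer to the background. Per 100 kb of gene and flank, primordial germ cell genes had 2.58 sites, trophectoderm genes 2.35 and core pluripotency genes 1.66, against 0.393 for all genes. These values rest on few genes, with 12 sites in 5 germ cell genes, 10 in 3 trophectoderm genes and 2 in 1 core pluripotency gene. Tfap2c counts in both the germ cell and the trophectoderm list. Below 0.393 were the neural, FGF and ERK, cohesin and CTCF, chromatin modifier, mesendoderm and 2-cell-like lists. A site in or near the gene was found for 35.7% of primitive endoderm, 31.25% of germ cell and 25% of trophectoderm genes, but for 8.33% of neural genes. Core pluripotency genes had 1 of 10, Sall4, a zinc-finger factor (fold 6.84 and 6.68). Genes of LIF and BMP signalling, which sustains ESC, had 2 of 15: Il6st, the gp130 receptor chain of LIF (7.92 and 6.93), and Socs3, its feedback inhibitor (4.00 and 4.98). WNT signalling had 1 of 16, Ctnnb1, which encodes beta-catenin (4.00 and 4.38). A further 7 WNT genes had a site inside the gene, Gsk3b, Apc, Tcf7l1, Tcf7l2, Lef1, Lrp5 and Lgr5, so that 50% of the list had a site in or near the gene, and its genes were long, with a median of 99.2 kb. Primordial germ cell genes had 3 of 16: Kit, the receptor of stem cell factor (9.69 and 10.8), Prdm1, which encodes BLIMP1 (3.52 and 3.39), and Tex19.1 (4.86 and 5.89).

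Among genes of other lineages, primitive endoderm had 1 of 14, the laminin gene Lama1 (5.14 and 5.42), with Gata6, Pdgfra, Dab2 and Sparc having a site only inside or near the gene. Neural genes had 1 of 12, Neurog1 (4.57 and 5.22). Fibroblast feeder genes, markers of cells that an ESC culture could hold, had 1 of 12, Lum (7.03 and 3.65), and its site had a peak in 2 other STAG2 lists. Trophectoderm, FGF and ERK signalling and 2-cell-like genes had 0 of 12, 0 of 15 and 0 of 17. Tead4, a trophectoderm factor, held a cluster of sites inside the gene all the same. Cohesin and CTCF genes had 1 of 20, Nipbl, the cohesin loader (4.57 and 6.26), and chromatin modifiers 1 of 30, Smarca4, the BAF motor (4.37 and 6.26). With 10 to 30 genes in a list, 1 or 2 genes decide each share.

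Of 1005 miRNA hairpins, 23 lay within 2500 bp of an ESC-only site and 63 of an EpiLC-only site. The 23 included Mir200c and Mir141, known from epithelial cells, at 1 site (fold 4.86 and 5.01), Mir183 and Mir96 at another (3.61 and 5.19), and Mirlet7g, of the let-7 family (3.62 and 5.17). These were named after their values were seen.

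The 12 strongest ESC-only sites lay inside genes or some kilobases from them, none at a gene end. The strongest was in Micu2, a regulator of the mitochondrial calcium channel (chr14:57934526-57935096), with a fold of 59.6 and 52.3. Next came sites in Camkmt, a calmodulin methyltransferase (39.7 and 26.5), in Rps6ka2, a kinase downstream of ERK (30.7 and 34.0), and 3.08 kb from Dppa5a, a gene known as a marker of pluripotent cells (27.7 and 37.6, chr9:78371275-78372043). Sites near U2surp (23.8 and 37.6), in Myo10 (29.2 and 28.3), near Siah1a (25.8 and 30.6), near St6galnac2 (21.4 and 30.1) and in Esrrb (26.8 and 23.6) followed, and Cd80, Reep3 and Adgrv1 completed the 12. None of the 12 lay at a CTCF or STAG3 site. A peak in both ESC STAG1 lists was found at 4 of them, Rps6ka2, Myo10, Cd80 and Reep3, and at Adgrv1 in list 1 only. The sites at Rps6ka2, Dppa5a, U2surp and Esrrb had no peak in any other STAG2 list. The link of a site to its nearest gene was not tested.

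Most ESC-only sites, 6246 (81.7%), lay outside clusters, taken as at least 3 sites with neighbours at most 20 kb apart. The other 1402 (18.3%) fell into 359 clusters, of which 74 had 5 or more sites. The share was 14.2% for EpiLC-only sites, although these were more numerous, 6.79% for sites of ESC and EpiLC only, and 48.3% for the far denser shared ESC sites. The nearest other ESC-only site was within 5 kb for 17.9% of sites, against 13.3% for EpiLC-only sites. A shared ESC site lay within 20 kb of 72.5% of the ESC-only sites, at a median distance of 8.84 kb. For EpiLC-only sites and shared EpiLC sites these values were 64.0% and 11.7 kb. The median cluster spanned 19.7 kb, 243 of the 359 touched a protein-coding gene, and 311 held no EpiLC-only site. Sites in clusters lay at CTCF sites in 2.50% of cases and the others in 6.0%. A peak in another STAG2 list was found at 28.9% of clustered sites and 45.6% of the others. The clustered share was 10.2% with a gap of 10 kb, 32.9% with 50 kb, and 27.6% without ESC STAG2 list 1.

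The largest cluster lay in Esrrb, a nuclear receptor gene that sustains naive pluripotency, with 13 sites in 61.0 kb (chr12:86455668-86516625). Their fold ran from 3.58 to 8.05, with a median of 5.31, and none lay at a CTCF site or an ESC STAG1 site. Over this span the ESC STAG2 lists had 18 and 20 peaks. The EpiLC lists had 3 and 5, the d2PGCLC lists 4, 1 and 1, the d4c7PGCLC lists 8, 4 and 4, and the GSC lists 0, 0 and 1. The ESC lists thus had more peaks there than any other list, as the selection favours. The span also held 5 shared ESC sites and no EpiLC-only site. A 14th site, the strongest in the gene (26.8 and 23.6), lay outside the cluster, between both start sites of the gene (chr12:86385827-86386475).

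**Figure D5:**
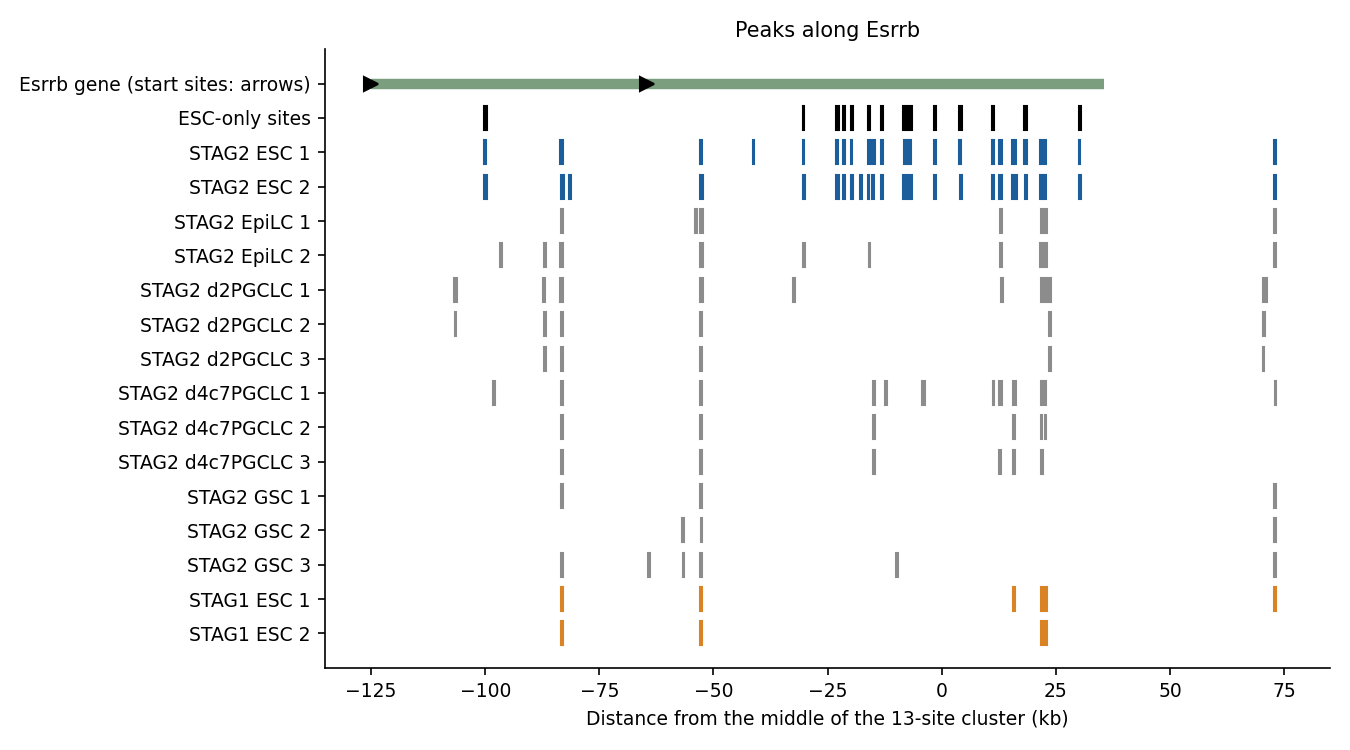
STAG2 peaks of all 13 lists and STAG1 peaks of ESC along Esrrb, in kb from the middle of its 13-site cluster, with the gene (green, arrows at start sites) and the ESC-only sites (black) on top. The ESC lists have 18 and 20 peaks within the cluster, and the other lists 0 to 8.

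The next 4 clusters held 9 to 11 sites. At Cd9, a tetraspanin on the ESC surface, 11 sites spanned 61.2 kb (chr6:125431961-125493134), with 17 and 18 ESC peaks, 1 and 2 in EpiLC and at most 6 in any PGCLC or GSC list. Bcat1, an enzyme of branched-chain amino acid breakdown, had 9 sites in 37.8 kb (chr6:145047404-145085161), with 13 and 15 ESC peaks against 1 and 2 in EpiLC. A cluster of 9 reached over Igf1r, the IGF1 receptor gene, with Pgpep1l and Fam169b (chr7:68223489-68279307). It differed in having 6 and 6 EpiLC peaks and 3 EpiLC-only sites. The last of the 5 largest, also with 9 sites, lay 9.18 kb from Sik1, a salt-inducible kinase (chr17:31765289-31835069). Its span had 17 ESC peaks in each list, 4 in each EpiLC list and 3 to 6 in the PGCLC lists. None of the sites in these 5 clusters lay at a CTCF site or an ESC STAG1 site. Clusters of 8 included 1 at Clasp1 and Tfcp2l1 and 1 in Tead4.

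The genes with the most ESC-only sites were partly very long ones. Arid1b, a BAF subunit, had 18 sites in 353 kb, Ptprg, a receptor phosphatase, 15 in 689 kb, and Dpp6, a potassium channel partner, 14 in 910 kb. Arid5b, a DNA-binding protein, had 14 in 187 kb and Esrrb 14 in 161 kb. Per 100 kb of gene and flank this was 8.46 sites for Esrrb, 7.30 for Arid5b, 5.02 for Arid1b, 2.16 for Ptprg and 1.53 for Dpp6, against 0.393 over all genes. The 5 genes had 6 to 27 shared ESC sites in the same spans. They had EpiLC-only sites in Ptprg (6) and Dpp6 (2), and 0 in Arid1b, Arid5b and Esrrb.

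All 19 autosomes and both sex chromosomes held ESC-only sites, with 1 on chromosome Y. Of the merged intervals with an ESC site, 12.6% were of ESC only over the genome. The share was highest on chromosome 16 (16.0%), 13 (15.04%) and 17 (14.4%), and chromosome X had the lowest, 141 of 1575 (8.95%). Chromosomes 16 and 17 also had the highest shares of their ESC-only sites in clusters, 26.0% and 25.1%, and chromosome X the lowest apart from Y, 9.22%. For EpiLC-only sites chromosome X was high, with 27.8% of its EpiLC sites against 22.4% overall. These shares rest on the same lists and have no test.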

How the data were processed

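The series holds 92 samples, of which 30 peak lists were used: 13 of STAG2, 10 of STAG1, 3 of STAG3 and 4 of CTCF. The members and gene lists were chosen with earlier results of these data known. Per the submitters' processing notes, the tools were MACS2, deepTools 3.5.0, Bowtie2 2.3.4.1, bedtools 2.29.2, Trim Galore 0.4.1, SAMtools 1.7 and cutadapt 1.9.1, and the builds GRCm38.p3 and mm10. Their options, the version of MACS2 and the control libraries are not given in the labels or lists. The authors' lists give each peak's fold enrichment over background, a linear ratio, which was used to describe and rank peaks within a list. The deposited −log10 of the q-value, at least 2 in every list, was used only for the stricter alternative. The deposited −log10 of the p-value and the deposited score were not used. CTCF lists had been called on pooled replicates, so CTCF has 1 list per genotype.

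Intervals overlapped when they shared at least 1 bp, and touching intervals were kept apart. Genes, promoters and hairpins came from RefSeq tables of GRCm38.p6, matched by chromosome position. Gene ends are both ends of 21887 protein-coding genes, with 2500 bp on each side, since the gene table gives no strand. Of 227 genes in the 15 lists, 225 matched, and Zscan4a and Zscan4e did not. Named genes were those nearest the 12 strongest sites, list genes with a site at an end, the 5 genes with most sites, genes at the 5 largest clusters, and the 5 strongest sites with STAG1 in both ESC lists and no other. Distances to start sites, hairpins and shared sites, gene lengths and sites per 100 kb were added after the data were seen. The tests were exact two-sided permutations over the 10 STAG1 lists with Benjamini-Hochberg adjustment over 3 tests (threshold 0.05), checked on simulated data. Intervals are 95% Wilson intervals and cover counting error over sites only. The depth behind each list is unknown, and nothing in the labels ties replicates to separate cultures. The p-values then cover the spread between these lists, which may be technical. The tests treated the 8 other STAG1 lists as separate units, although they came from 4 cell types and lists of a cell type can resemble each other. ESC is 1 of 5 cell types, so the tests cannot speak for differences between cell types as units. Python 3.11.15, numpy 2.4.6, scipy 1.17.1 and matplotlib 3.10.9 were used.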

Additional observations from a re-analysis of the deposited data

Results flagged for a closer look

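The difference in STAG1 calls between ESC-only and EpiLC-only STAG2 sites was above 0 in both ESC STAG1 lists and below 0 in each of the 8 STAG1 lists from EpiLC, PGCLC and GSC. The means differed by 2.40 points. The exact two-sided permutation p was 0.0444, and 0.0889 after adjustment over 3 tests, so the difference did not pass. STAG1 was not used to choose either set of sites. The sets were chosen by STAG2 calls in ESC and in EpiLC, however, and STAG1 shares sites with STAG2. The part of this in the signs was not tested. EpiLC-only sites lay at CTCF sites more often (10.5% against 5.36%), and the part of this was not tested.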

How the results depend on the processing

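The site set depends on how many lists a call needs and on list length. Sites called in any list gave 12628 sites, of which 2.32% lay at CTCF sites, 12.7% at gene ends (median distance 22599 bp), 27.1% in clusters and 2.96% at ESC STAG1 sites. EpiLC-only sites of this setting lay at gene ends in 13.3% of cases. The STAG1 differences were then 1.16, 0.389 and 0.871 points, and none passed (exact permutation, adjusted p = 0.0889 each). Sites called in every list gave 9122 sites, with 20.1% at gene ends (median 17612 bp), 20.3% in clusters and 1964 genes with a site at an end. With the stricter q (−log10 of at least 5), the CTCF share was 5.91% and the clustered share 16.9%. Lists of equal length gave 487 sites, 58.7% at CTCF sites, 17.5% at gene ends (median 18246 bp), 1.03% in clusters, 18.5% at ESC STAG1 sites and 89 genes. EpiLC-only sites of this setting lay at CTCF sites in 48.3% of cases, so ESC-only sites were no longer the lower of both. The STAG1 differences were then 19.6, 0.991 and 17.9 points and passed (exact permutation, adjusted p = 0.0333, 0.0333 and 0.0444), over a nearly disjoint set of sites. This setting also cut every STAG1 list to 9641 peaks and every CTCF list to 39639. CTCF sites of any genotype gave 7.66%. A window of 1000 bp gave 10.6% at gene ends and 875 genes, and cluster gaps of 10 and 50 kb gave 10.2% and 32.9%. An overlap of 50% moved no result beyond its interval.

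Leaving out each STAG2 list in turn gave 6566 (EpiLC list 2) to 14249 sites (ESC list 1), since a lone ESC list is then a site on its own. ESC list 2 left out gave 13705. The CTCF share ran from 4.25% to 5.50%, gene ends from 15.6% to 18.4%, the median distance from 18263 to 20546 bp, clusters from 18.05% to 27.6%, and genes from 1110 to 2720 (2368 without ESC list 2). The naive list had 7 of 20 genes without each other list, 8 without ESC list 1 and 11 without ESC list 2. Over all genes the share was 12.4% without ESC list 1 and 10.8% without ESC list 2, against 6.20% with all lists. The share with an ESC STAG1 site ran from 1.28% to 8.04%. Leaving out each list, the STAG1 differences ran from 0.963 to 6.45, 0.336 to 1.25 and 1.37 to 3.03 points, lowest for the first 2 without ESC STAG1 list 1 and highest for all without ESC STAG1 list 2. Adjusted exact permutation p lay between 0.0556 and 1, and with a lone ESC list p cannot go below 0.111.

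With the replicate number as a block, the differences of 3.71, 0.791 and 2.40 points had exact permutation p of 0.12, 0.08 and 0.04 (adjusted 0.12 each, smallest possible 0.04). Site by site, same-numbered STAG1 lists did not deviate together, with correlations over sites from −0.0667 to 0.0711 in 10 pairs of cell types. This correlation removes a shift in list length that same-numbered lists share. It therefore cannot show whether the replicate number marks a batch. Unknown depth limits what a missing call means.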
